A study of Homo sapiens with 6 samples.

Results

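U373 cells transfected with SYK and given no treatment were compared at day 2 and day 1. The members are 2 of the 6 arrays of the series, chosen by their labels alone, with 1 array a day and so no replicate check on any difference. U373 is a human glioblastoma cell line, that is, a tumour line of glial origin. Each array was a Human Genome U95 Av2 GeneChip, which reads the amount of RNA of each gene through 1 or more sets of short probes. Both arrays carry transfected cells of an ecdysone-inducible expression system, in which an insect steroid receptor switches on the inserted gene when its ligand ponasterone A (PonA) is added. Neither array received PonA or its solvent, ethanol. The other 4 arrays hold untransfected untreated cells at day 1, transfected cells given ethanol at day 1, and transfected cells given ethanol with 10 µM PonA at day 1 and at day 2. All 6 arrays come from 1 cell line grown in medium with fetal calf serum, and the labels do not say whether the transfected cells were 1 clone or whether arrays came from separate cultures. The sources used here do not give the hours behind "day 1" and "day 2".

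As background, an adherent culture left for another day grows denser, uses up glucose and serum factors, and fills the medium with its own secreted products. Dividing cells make transcripts for DNA replication through E2F transcription factors, and transcripts for mitosis later in the cycle. Glial tumour lines also secrete matrix proteins and transforming growth factor beta (TGF-beta), whose levels are known to depend on cell density and serum.

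Values are MAS5 signals, one linear intensity per probe set, scaled by the authors to a common level. Signals under an array's 40th percentile were raised to that percentile, called the floor here, which was 26.3 at day 1 and 23.2 at day 2. A difference is the log2 of the floored day 2 signal over the floored day 1 signal, and a gene with several probe sets was read from the one brightest on average over the 6 arrays. Where a signal lay under the floor on 1 side, the fold is a lower bound and is written "at least".

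Most transcripts differed little between the 2 days. Of 8003 probe sets above the floor on either array, 83 were at least 2-fold higher at day 2 (1.04%) and 172 were at least 2-fold lower (2.15%), or 255 in all (3.19%). The median difference was -0.06. The excess of lower over higher probe sets depended on scaling: 32.5% of the 2-fold probe sets were higher as deposited, 43.2% after centring each array on its median (105 higher and 138 lower) and 52.7% after quantile normalization (125 higher and 112 lower). A same-day yardstick was the ethanol array over the untreated array at day 1, in which 175 of 8015 probe sets were at least 2-fold apart (2.18%), 83 higher (1.04%) and 92 lower (1.15%). That comparison shares the untreated day 1 array. The count of higher probe sets was thus as large between 2 arrays of 1 day as between the days, and the count of lower ones was larger between the days. Counted by gene, 62 of 5773 were at least 2-fold higher (1.07%) and 120 at least 2-fold lower (2.08%).

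Large differences sat among dim probe sets. Under a geometric mean signal of 100, 199 of 3901 probe sets were at least 2-fold apart (5.10%), of which 144 were lower at day 2. From 100 to 500, 49 of 2921 were (1.68%), 24 higher and 25 lower. Above 500 only 7 of 1181 were (0.593%), 4 higher and 3 lower. In the ethanol comparison the shares were 3.81%, 0.806% and 0.339% over the same ranges of signal. Pearson's r of log2 signal over 6449 probe sets above the floor on all 6 arrays was 0.971 between the days in untreated cells and 0.975 between the ethanol and untreated arrays at day 1.

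**Figure D1:**
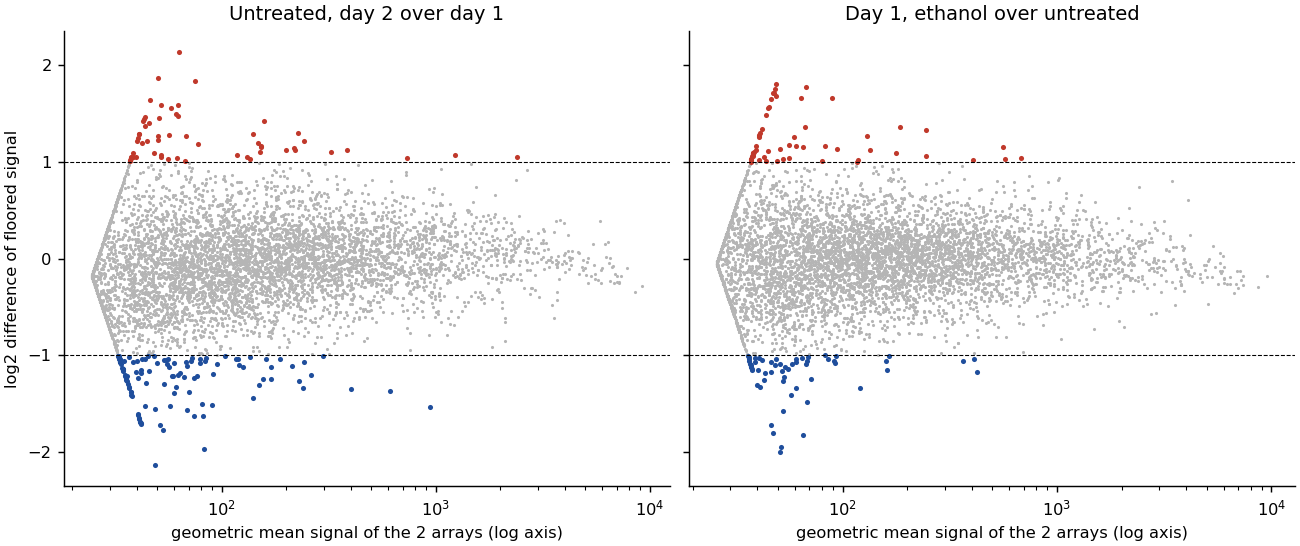
Log2 difference of floored signal (y axis) against the geometric mean signal of both arrays (x axis, log scale), 1 point per gene above the floor on either array. On the left, untreated day 2 over day 1, 62 genes lie at or above 1 (red) and 120 at or below -1 (blue). On the right, ethanol over untreated at day 1, they are 58 and 58, and in both panels the spread narrows as signal grows.

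The arrays differed in a measure of RNA integrity. The ratio of the 3′ to the 5′ beta-actin control probe sets was 1.21 on the untreated day 2 array and 1.20 on the PonA day 2 array, against 0.960 to 0.987 on the 4 day 1 arrays. The same ratio for GAPDH was 0.939 at day 1 and 0.946 at day 2 in untreated cells. The actin ratio thus moves with the day, and its part in the differences below was not tested. Astroglial markers were present on both arrays: 13 and 15 of 18 were above the floor at day 1 and day 2, while AQP4, SLC1A2 and SPARCL1 were under it on both. Their summed signals were 14701 and 15426 (14323 to 16072 over all 6 arrays). Of 18 neuronal markers 8 and 11 were above the floor, with summed signals of 5955 and 5401. Of 10 oligodendrocyte markers 6 were above it on each array, with summed signals of 1240 and 1162. Of 18 haematopoietic and microglial markers 6 and 7 were above the floor, with PTPRC, CD14, ITGAM and SPI1 under it and summed signals of 436 and 352. Of 16 fibroblast and endothelial markers 6 and 8 were above it, with summed signals of 2603 and 2595 and with COL3A1, LUM, FAP, CDH5 and VWF under it. Of 11 epithelial markers 4 and 3 were above it, with summed signals of 761 and 737 and with EPCAM and CDH1 under it.

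A day term fitted over the 5 transfected arrays gave the main test. It estimates day 2 over day 1 beside a PonA term, with the ethanol array counted as untreated and 2 residual degrees of freedom, by limma's moderated test. No probe set of 7934 passed an adjusted p of 0.05 (0%), 1048 had an unadjusted p under 0.05 (13.2%), and the median standard error of the term was 0.19. So no single gene below passed a test, and its values are a description of these arrays.

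The lowest p of that term belonged to GPNMB, a transmembrane glycoprotein of lysosomes and melanosomes that is abundant in many glioblastomas. Its signal was 30.1 at day 1 and 132.6 at day 2 in untreated cells, 4.40-fold apart and the highest difference of all genes measured on both arrays (log2 2.14). The ethanol array had 21.6, the PonA arrays 16.4 at day 1 and 155.7 at day 2, and untransfected cells 68.6. Both day 2 arrays were thus above all 4 day 1 arrays. The limma day term was 2.39 ± 0.18 (SE, 5 arrays), with an adjusted p of 0.0552. On the ethanol and PonA day 1 arrays GPNMB was under the floor (25.4 and 26.5), so the fit read the floor there. The term is thus a lower bound, and its standard error and p rest partly on floored values. Over 11 other settings of the fit the term ranged from 1.68 to 2.75 and its adjusted p from 0.00841 to 0.345, under 0.05 in 5 of them.

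DNA replication and mitosis genes had the highest medians at day 2 of the 32 gene lists in the signals as deposited. After quantile normalization replication was still highest (0.48), but interferon-stimulated genes (0.31) lay above mitosis genes (0.26). Of 35 DNA replication and licensing genes above the floor, 28 were higher at day 2 (80.0%) and 7 lower, with a median of 0.44. Of 33 mitosis genes, 26 were higher (78.8%) and 7 lower, with a median of 0.26. Over all 5773 genes 43.6% were higher and the median was -0.06. Past 2-fold were 2 replication genes upward and 1 downward and no mitosis gene, so most of these differences were small. Histone genes, also of the cell cycle, had 8 of 16 higher and a median of 0.018. In a bulk sample a larger share of dividing cells and more of each transcript per dividing cell cannot be told apart.

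The replication genes ranged from CDC45 to ORC2. CDC45, a component of the replicative helicase, was under the floor at day 1 (16.6) and at 71.4 at day 2, at least 2.72-fold higher. It read 19.2 with ethanol, 12.4 and 23.2 with PonA at day 1 and day 2, and 91.6 in untransfected cells, so the untreated day 2 array was the highest transfected one. RFC5, a subunit of the clamp loader, read 94.6 at day 1 and 193 at day 2 (log2 1.03), with 94.2 for ethanol and 85.2 and 58.3 with PonA. Its 2 other probe sets differed by 0.00 and 0.78, so the size depends on the probes. MCM6, another helicase subunit, read 151 and 289 (0.94), against 146 with ethanol, 228 and 229 with PonA and 452 in untransfected cells. GINS1, part of the same helicase complex, read 77.2 and 137 (0.83). CDT1, which loads the helicase at origins, read 28.3 and 47.2 (0.74), but 52.5 with ethanol at day 1. ORC2, an origin recognition subunit, went the other way, from 62.9 to 30.6 (-1.04).

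The promoters of 3 of these genes are printed because they hold the letters of E2F-type elements. Of the 32 replication genes whose RefSeq promoter (250 bases before to 50 after the start, GRCh38.p14) could be matched, 16 (50%) held TTTGGCGC, TTTCCCGC, TTTGCCGC or TTTCGCGC on either strand, against 316 of 6618 genes on the array (4.77%) and 908 of 27305 promoters of that length (3.33%). The 3 shown have the largest differences among the 16, and they come from chr2:135876394-135876693 (MCM6, minus strand), chr20:25407423-25407722 (GINS1, plus strand) and chr16:88803539-88803838 (CDT1, plus strand). Capitals mark the matches, 5′ to 3′. In each capital stretch of MCM6, TTTGGCGC overlaps the reverse complement of TTTCGCGC, which gives 4 matches. A match is a description of the letters and no evidence of binding. The share of 50% describes the genes on the list, whichever way they moved. No match was found in these windows for CDC45 or RFC5, the genes with the largest differences. Matches were also found for lower members, CDC25A (-0.39), POLE (-0.37), LIG1 (-0.14) and POLE2 (-0.07), but not for RFC2 (-0.12) or ORC2 (-1.04). Whether genes with a match differed more between the days was not tested.
MCM6: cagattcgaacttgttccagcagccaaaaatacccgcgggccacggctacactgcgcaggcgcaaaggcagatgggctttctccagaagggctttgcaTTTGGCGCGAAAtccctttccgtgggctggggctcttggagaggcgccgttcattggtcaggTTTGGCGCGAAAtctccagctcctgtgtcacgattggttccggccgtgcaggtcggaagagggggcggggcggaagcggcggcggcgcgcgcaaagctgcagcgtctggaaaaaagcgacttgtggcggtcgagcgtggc
GINS1: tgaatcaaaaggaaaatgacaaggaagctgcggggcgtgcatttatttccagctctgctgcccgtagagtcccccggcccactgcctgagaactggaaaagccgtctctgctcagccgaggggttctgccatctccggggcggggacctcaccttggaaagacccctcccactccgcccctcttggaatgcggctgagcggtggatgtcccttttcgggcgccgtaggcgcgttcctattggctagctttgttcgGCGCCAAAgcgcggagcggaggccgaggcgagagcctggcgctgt
CDT1: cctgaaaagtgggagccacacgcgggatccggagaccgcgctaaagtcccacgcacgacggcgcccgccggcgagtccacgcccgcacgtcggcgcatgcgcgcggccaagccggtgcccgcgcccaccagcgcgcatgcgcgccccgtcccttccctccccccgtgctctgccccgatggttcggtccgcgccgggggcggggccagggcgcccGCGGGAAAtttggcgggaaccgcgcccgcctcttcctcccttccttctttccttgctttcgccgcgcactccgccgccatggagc

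A further set of replication genes, named after their values were seen, was higher by 0.16 to 0.71. The sliding clamp PCNA read 462 at day 1 and 686 at day 2 (log2 0.57), the flap nuclease FEN1 515 and 782 (0.60), and topoisomerase TOP2A 418 and 626 (0.58). Ribonucleotide reductase RRM1 read 152 and 248 (0.71). The helicase subunits MCM2 (229 and 337, 0.56) and MCM7 (481 and 651, 0.44) and thymidine kinase TK1 (853 and 1173, 0.46) were also higher. Thymidylate synthase TYMS, the brightest of those named, read 2931 and 3270 (0.16). Lower members of the list, beside ORC2, included CDC25A (-0.39), POLE (-0.37), LIG1 (-0.14), RFC2 (-0.12) and POLE2 (-0.07).

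Mitosis genes were higher by up to 0.66. That was KIF23, a kinesin of the dividing cell's midzone, at 88.6 and 140. The kinesin KIF2C read 561 and 873 (0.64), the ubiquitin enzyme UBE2C 1212 and 1824 (0.59), the survivin gene BIRC5 341 and 518 (0.60), securin PTTG1 1238 and 1708 (0.46) and cyclin CCNB1 781 and 1020 (0.38). The kinases PLK1 (662 and 573, -0.21) and TTK (135 and 92.3, -0.55) were lower at day 2, and AURKA (0.09) and BUB1B (0.03) stood near 0.

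With PonA the same lists did not have a higher median at day 2. Of the 35 replication genes, 31 were above the floor on either PonA array. Of these 13 were higher (41.9%), with a median of -0.06. Of 27 such mitosis genes 7 were higher (25.9%), with a median of -0.32. Over all 5469 genes above the floor in both pairs, 46.1% were higher with PonA and the median was -0.04. The replication share was thus near that of all genes, and the mitosis share was under it. The mitosis genes CCNB1 and KIF2C were low on the PonA arrays at day 1 already, at 159 and 94.5 and at 105 and 90.2. The replication gene MCM6, by contrast, read higher with PonA than untreated at day 1. Over the whole lists the PonA level at day 1 was not compared. The limma day term called no gene of either list, and a PonA-by-day term called 0 of 7934 probe sets (330 at an unadjusted p under 0.05), so the difference between the pairs was not shown gene by gene. The ethanol array over the untreated array at day 1 had medians of -0.19 for replication and -0.10 for mitosis. With the ethanol array in place of the untreated one at day 1, the medians at day 2 were 0.60 and 0.47.

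**Figure D2:**
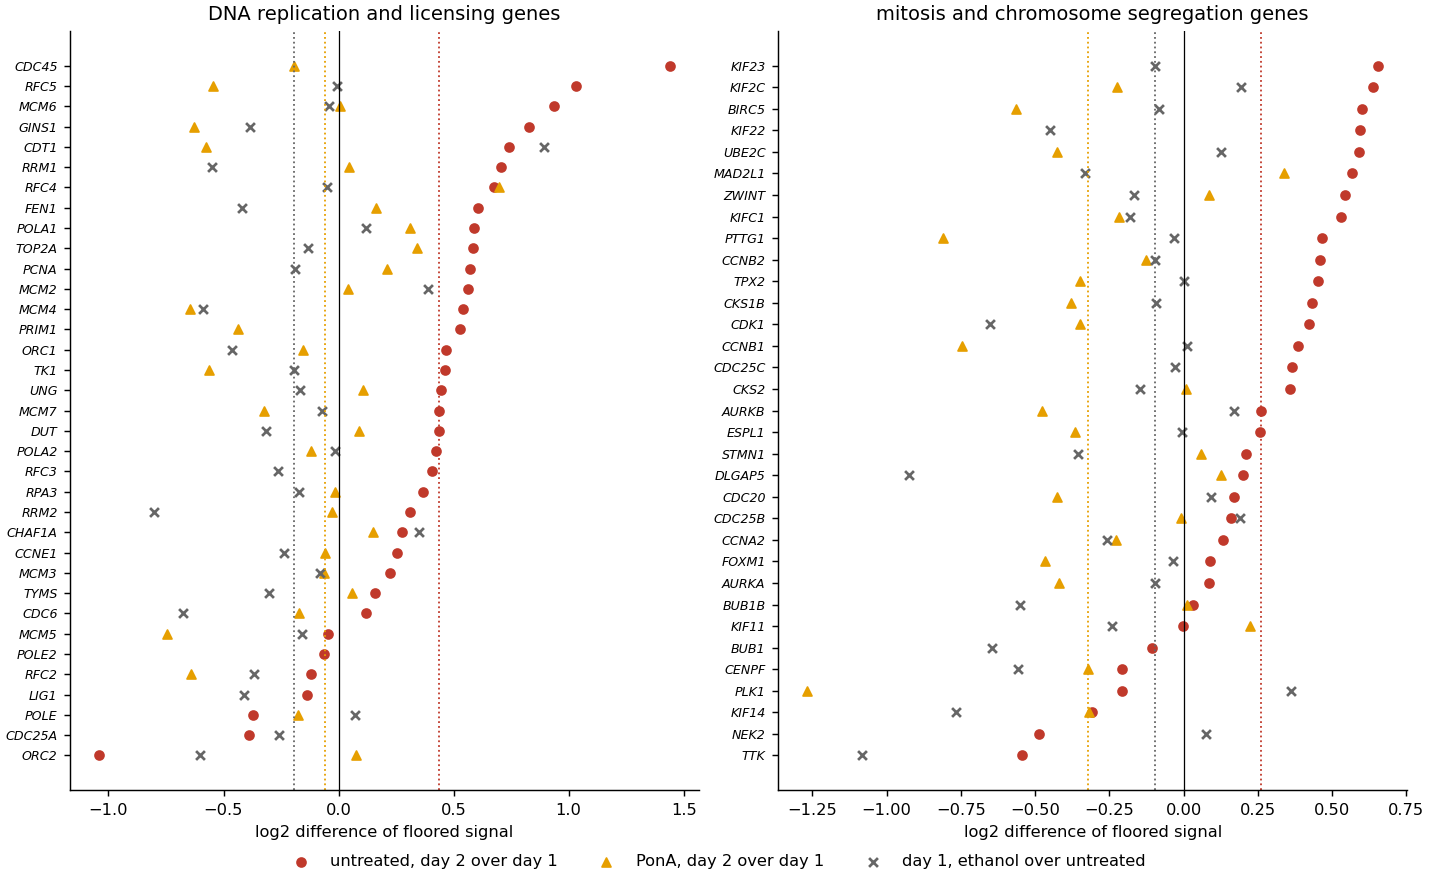
Log2 difference of floored signal for each DNA replication gene (left, 35 genes) and mitosis gene (right, 33 genes), ordered by the untreated pair. Red points are untreated day 2 over day 1, orange triangles PonA day 2 over day 1 and grey crosses ethanol over untreated at day 1; dotted lines are the medians, 0.44, -0.06 and -0.19 on the left and 0.26, -0.32 and -0.10 on the right, and a gene under the floor on both arrays of a pair has no mark for it.

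Behind GPNMB, the genes furthest above their day 1 level had varied roles. PFAS, an enzyme of purine synthesis, read 39.6 at day 1 and 142 at day 2 (3.57-fold, log2 1.84). The ethanol array had 42.4, the PonA arrays 53.2 and 63.5 and untransfected cells 184, so the untreated day 2 array was the highest transfected one. FANCI, a DNA crosslink repair protein, read 89.7 and 220 (1.29), above 75.0 with ethanol and 39.0 and 58.4 with PonA. VPS13D, of a family of lipid transfer proteins, read 144 and 354 (1.30), and 74.5 with ethanol. BAMBI, a decoy receptor that dampens TGF-beta signalling, read 159 and 370 (1.22), against 187 with ethanol and 146 and 156 with PonA. For PFAS, FANCI, VPS13D and BAMBI, the untreated day 2 signal was above those of the other 4 transfected arrays.

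The channel subunit ASIC2 read 37.3 and 104 (1.48), against 41.9 with ethanol and 60.9 and 88.9 with PonA. The interferon-induced membrane protein IFITM1 read 97.8 and 224 (1.19), against 105 with ethanol and 74.4 and 117 with PonA. ARHGEF17 read 44.0 and 106 (1.26), against 69.3 with ethanol and 14.7 and 70.4 with PonA. ASIC2, IFITM1 and ARHGEF17 were higher at day 2 in both pairs, ARHGEF17 by at least 2-fold in each, though its ethanol signal lay midway between the untreated days. The matrix protein DPT read 146 and 322 (1.14), but 186 and 139 with PonA, and its 2 other probe sets were under or near the floor.

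For the next 5 genes the ethanol array, itself from day 1, lay between the untreated arrays or beyond day 2. The proteasome subunit PSMA7 read 36.1 at day 1 and 109 at day 2 (1.59), but 114 with ethanol. The adaptor APBA3 read 36.3 and 102 (1.49), but 124 with ethanol. CASP9, the initiator caspase of the mitochondrial death pathway, read 95.8 and 256 (1.42), with 158 for ethanol, and its second probe set read 44.9 and 80.4 (0.84). TXNIP, a thioredoxin-binding protein that responds to glucose, read 102 and 228 (1.16), with 188 for ethanol, 66.4 and 68.3 for PonA and 401 in untransfected cells. CYP4B1, a cytochrome P450, read 102 and 229 (1.16), with 155 for ethanol. Of these, PSMA7 and APBA3 were lower at day 2 when the ethanol array was the reference (-0.072 and -0.28). The growth factor FGF4 read 51.5 and 117 (1.18), with 71.4 for ethanol, and its second probe set was under the floor on both arrays.

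The genes furthest below their day 1 level included secreted and surface proteins. ATP1B1, the beta subunit of the sodium pump, was the brightest, at 1596 at day 1 and 550 at day 2 (2.90-fold lower, log2 -1.54). It read 1533 with ethanol, 1826 and 1236 with PonA and 746 in untransfected cells, so the untreated day 2 array was the lowest of the 6. TGFB1, the ligand TGF-beta 1, read 980 and 378 (2.59-fold lower, -1.37), against 1025 with ethanol, 2496 and 1444 with PonA and 437 in untransfected cells. A second TGFB1 probe set read 99.7 and 87.1 (-0.19), so the size rests on the brightest one. THBS1, the matrix glycoprotein thrombospondin 1 that can activate latent TGF-beta, read 640 and 251 (-1.35). It read 1005 and 473 with PonA, but 283 with ethanol at day 1 and 242 in untransfected cells. The other THBS1 probe sets gave -1.55 (382 and 131, 234 with ethanol) and -0.49 (56.0 at day 1 and 56.4 with ethanol). The ethanol array thus lay near day 2 by the brightest THBS1 probe set, between the days by the second and near day 1 by the third.

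ITGAV, the integrin alpha V chain, read 232 and 85.2 (-1.44), against 218 with ethanol and 286 and 135 with PonA. A second ITGAV probe set read 109 and 108 (-0.02), and 191 and 265 with PonA (0.48), so the probe sets of this gene disagree. The receptor kinase EPHB3 read 378 and 150 (-1.33), against 320 with ethanol and 325 and 169 with PonA. ORAI2, a subunit of store-operated calcium channels, read 143 and 46.3 (-1.63), against 139 with ethanol and 108 and 63.1 with PonA. EPHB3, ORAI2 and the brightest ITGAV probe set were each lower on both day 2 arrays than on any of the 3 transfected day 1 arrays.

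MDFI, an inhibitor of myogenic transcription factors, had the largest such difference, 163 at day 1 and 41.6 at day 2 (3.92-fold lower, -1.97). It read 125 with ethanol, 107 and 37.8 with PonA and 11.7 in untransfected cells. All 3 transfected day 1 arrays lay above both day 2 arrays, and the limma day term was -1.66 ± 0.20 (SE, 5 arrays) with an adjusted p of 0.143. The kinase SIK1 (151 and 53.1, -1.51, with 126 for ethanol), the proton pump gene ATP4A (135 and 47.9, -1.50, with 89.4 for ethanol), the antiplasmin gene SERPINF2 (113 and 43.5, -1.38, with 59.2 for ethanol), the GTPase GTPBP1 (236 and 95.1, -1.31, with 139 for ethanol) and gamma-synuclein SNCG (118 and 40.1, -1.56, with 79.9 for ethanol) lay under their day 1 signals too. The actin-binding protein ABLIM1 read 354 and 147 (-1.26), with 201 for ethanol. The trefoil peptide TFF3 read 263 and 111 (-1.25), with 172 for ethanol and 210 on each PonA array. The noncoding RNA MEG3 read 130 and 42.1 (-1.62), but 28.6 and 61.7 with PonA.

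**Figure D3:**
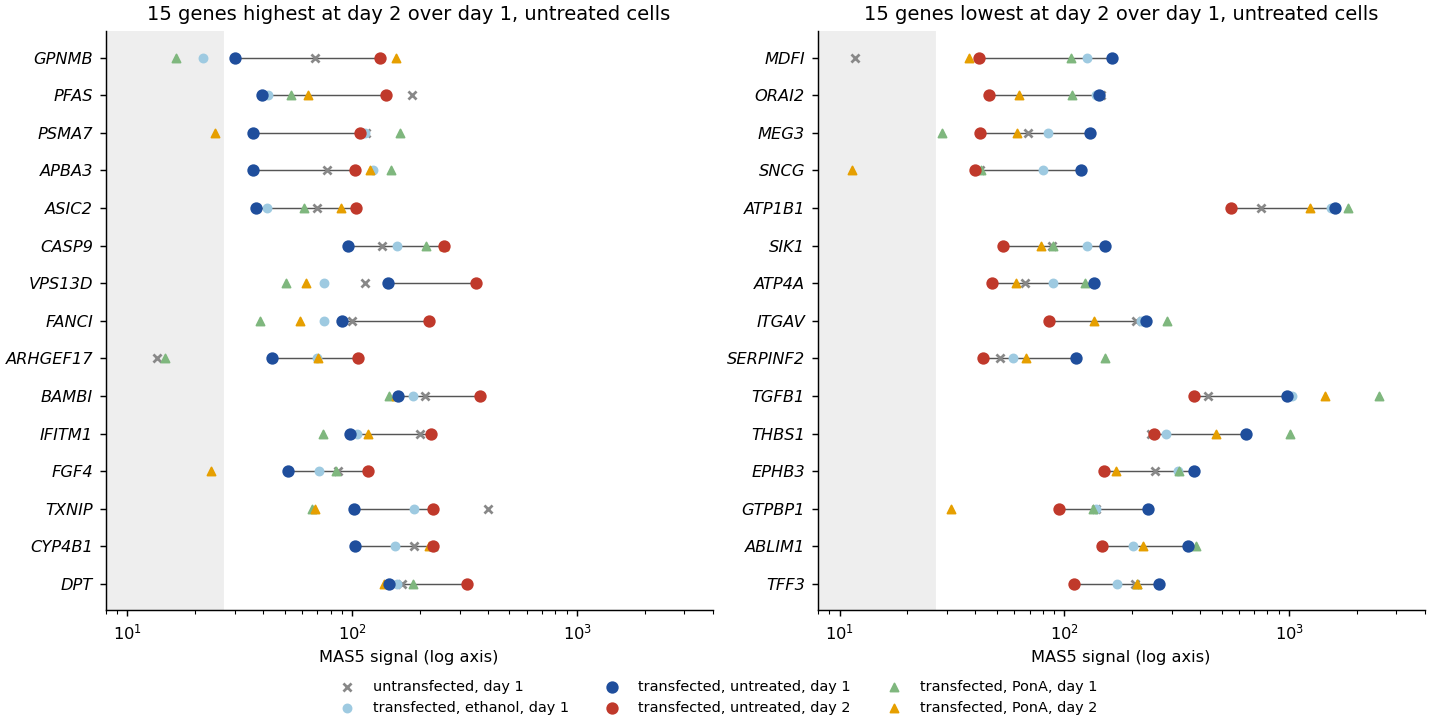
MAS5 signal (x axis, log scale) of the 15 genes highest (left) and lowest (right) at day 2 over day 1 among genes above the floor on both untreated arrays and at 100 or more on 1, with every array marked. Lines join the untreated arrays (blue day 1, red day 2), the grey band lies under the highest floor of the 6 arrays (26.5), and for PSMA7 and APBA3 the ethanol day 1 mark (pale blue) lies beyond the day 2 mark.

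Some genes were under the floor on 1 of the days. Above it only at day 2 were ACTA2, the smooth muscle actin (17.1 and 95.6, at least 3.64-fold higher), the RNA decapping enzyme DXO (22.2 and 81.9), the chaperone HSPA1B (25.7 and 72.4) and the translation factor CTIF (23.5 and 70.5), beside CDC45. The ethanol array read 86.3 for ACTA2, 77.9 for DXO and 82.5 for HSPA1B, near their day 2 signals, and 49.7 for CTIF. HSPA1B has a near-identical copy, HSPA1A, and the signal of the pair may be split or shared. Above the floor only at day 1 were the corepressor CBFA2T3 (75.6 and 14.7, at least 3.26-fold lower), the homeobox gene PRRX1 (74.7 and 22.0), the receptor GFRA3 (76.0 and 16.4), the ARF exchange factor CYTH3 (74.7 and 16.1) and BAIAP3 (102 and 20.2). The ethanol array read 87.6 for CBFA2T3, 85.1 for PRRX1, 39.3 for GFRA3, 47.3 for CYTH3 and 26.3 for BAIAP3. All 5 were thus above the floor on both these day 1 arrays, BAIAP3 only just so with ethanol (floor 25.4).

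The PonA pair, day 2 over day 1, gave a second reading of the day on arrays that the untreated pair does not use. In it 70 of 7941 probe sets were higher by 2-fold or more (0.882%) and 163 lower (2.05%). Over 7532 probe sets above the floor in both pairs, Pearson's r of the log2 differences was 0.256 and Spearman's coefficient 0.259, a description across probe sets, which are no replicates. Over the 4136 with a mean signal of at least 100 they were 0.310 and 0.318. Of 157 probe sets at least 2-fold lower in untreated cells, 29 were also at least 2-fold lower with PonA (18.5% of these and 19.2% of the 151 lower with PonA), against 2.00% of all 7532. Of the 76 at least 2-fold higher, 3 were also higher with PonA (3.95% of these and 4.76% of the 63), against 0.836% of all. Of the 157 lower ones 79.6% had the same sign with PonA, against 55.9% of all, and of the 76 higher ones 52.6%, against 44.1% of all. The difference between the lower and the higher probe sets in these shares was not tested. With 1 floor for all arrays, 26 of 132 lower probe sets recurred (19.7%).

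By gene, 51 of 5711 were at least 2-fold higher with PonA (0.893%) and 110 at least 2-fold lower (1.93%). In both pairs, 3 genes were past 2-fold upward and 20 downward. The higher ones were GPNMB, ARHGEF17 and EFNA1, a ligand of Eph receptors. EFNA1 read 36.3 and 88.1 untreated and 22.4 and 56.2 with PonA, with 32.8 for ethanol. All 3 were under the floor on the PonA day 1 array (26.5), so their folds with PonA are lower bounds. Among the lower ones were MDFI, CBFA2T3, PRRX1, GFRA3, ITGAV (by its brightest probe set only), THBS1, ATP4A, SERPINF2 and GTPBP1. Others, named after their values were seen, were the epoxide hydrolase EPHX1 (314 and 146 untreated, 270 and 115 with PonA, 376 with ethanol), the receptor kinase EPHA3 (86.5 and 40.9, 94.8 and 45.1, 71.8 with ethanol) and the signal transducer STAT6 (60.5 and 29.6, 69.9 and 31.6, 42.8 with ethanol). For EPHX1, EPHA3 and STAT6 all 3 transfected day 1 arrays lay above both day 2 arrays. Of the 15 genes most below day 1 in untreated cells, 13 had the same sign with PonA and their median there was -0.90. Of the 15 most above it, 10 had the same sign, with a median of 0.26, and PSMA7 (163 and 24.6 with PonA) and FGF4 (84.9 and 23.5) were at least 2-fold the other way.

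**Figure D4:**
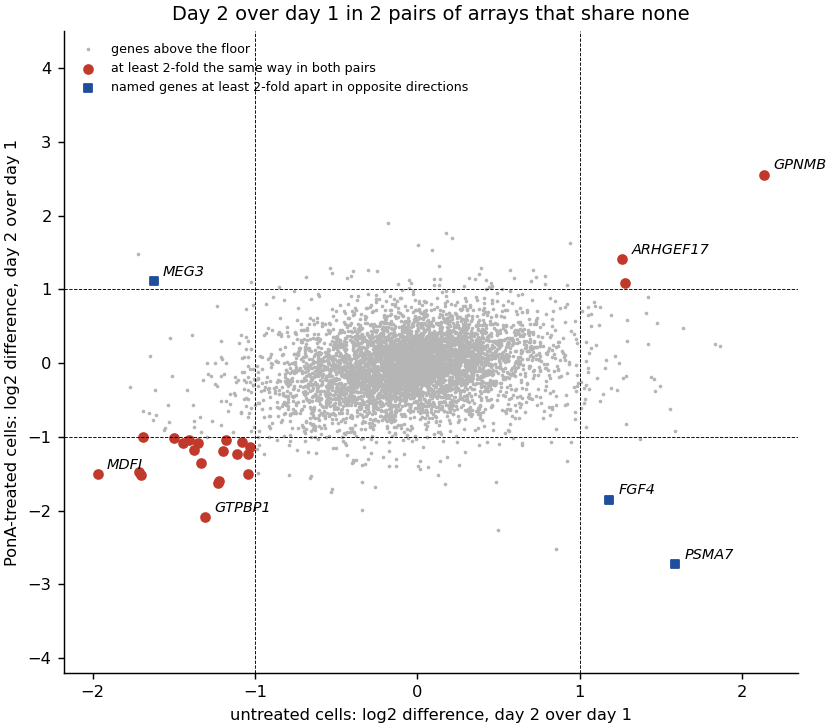
Log2 difference, day 2 over day 1, in PonA-treated cells (y axis) against untreated cells (x axis), 1 point per gene above the floor in both pairs, with dashed lines at 2-fold. Red points are the 23 genes past 2-fold with the same sign in both pairs, 20 of them at the lower left, and blue squares are MEG3, FGF4 and PSMA7, at least 2-fold in opposite directions.

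Of 41 collagens and matrix proteins 31 were lower at day 2 (75.6%, against 56.4% of all genes), with a median of -0.20, and 2 were at least 2-fold lower: THBS1 and the collagen chain COL9A3 (60.4 and 23.3, -1.37). The matricellular protein POSTN read 150 and 78.7 (-0.93), with 94.6 for ethanol, and the collagen chain COL6A2 993 and 582 (-0.77), with 1220 for ethanol. The brightest matrix genes hardly differed, with SPARC at 3090 and 2746 (-0.17) and fibronectin FN1 at 882 and 754 (-0.23). With PonA 24 of the 41 were lower (58.5%, against 53.9% of all genes), with a median of -0.05. The ethanol array over the untreated array at day 1 had a median of -0.09 for this list, and untreated day 2 over ethanol -0.10. Among 18 TGF-beta and BMP genes 11 were lower (61.1%, near the share of all genes), with a median of -0.26. All 3 TGF-beta ligands were, with TGFB2 at 79.0 and 41.8 (-0.92) and TGFB3 at 143 and 97.0 (-0.56) beside TGFB1. The TGF-beta induced matrix protein TGFBI read 4115 and 2955 (-0.48) untreated and 3645 and 2686 (-0.44) with PonA. The inhibitor BAMBI was the exception at 2-fold.

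Of 36 genes of glucose use and hypoxia, 22 were lower (61.1%, against 56.4% of all genes) and 14 higher, with a median of -0.17 (-0.13 with PonA). Among their lowest members were PDK1, PFKFB3 and PFKFB4. PDK1, which inhibits pyruvate dehydrogenase, read 62.6 and 28.2 (-1.15). PFKFB3 (369 and 187, -0.98) and PFKFB4 (370 and 210, -0.82) set the level of the activator of phosphofructokinase. PFKFB3 was 449 with ethanol and 343 and 172 with PonA, so that both day 2 arrays lay under all 4 day 1 arrays, and PFKFB4 was 446 with ethanol and 407 and 254 with PonA. HMOX2, a constitutive haem oxygenase, was at least 2-fold lower (-1.03), as was PDK1. Hypoxia's classic target VEGFA read 1601 and 1101 (-0.54), while LDHA (0.24) and NDRG1 (0.39) were higher. Of 44 genes of oxidative phosphorylation, COX5B was at least 2-fold higher (852 and 1790, 1.07) and NDUFA9 at least 2-fold lower (-1.24), with a median of 0.07.

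Metallothioneins, which bind zinc and copper, were higher at day 2. MT1X read 1042 and 2054 (0.98), MT1F 1943 and 3656 (0.91) and MT1H 1666 and 3461 (1.06). MT1E (0.39), MT2A (0.41) and MT3 (0.11) were higher by less. The ethanol array lay between, at 1479 for MT1X, 2542 for MT1F and 2225 for MT1H, and with PonA the differences were 0.33, 0.12 and -0.12. These genes are near-identical copies whose probes may read one another, so they are not separate readings. Of all 26 metallothionein and antioxidant genes 20 were higher (76.9%, against 43.6% of all genes), with a median of 0.13. TXNIP and MT1H were past 2-fold.

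Of 15 astroglial markers 10 were higher (66.7%, against 43.6% of all genes), with a median of 0.18, and 5 were lower, down to -0.69. Past 2-fold were GFAP, the filament protein of astrocytes, and SOX2, a stem cell factor. GFAP read 103 and 221 (1.10), with 114 for ethanol, 193 and 229 with PonA and 1533 in untransfected cells. The day 2 level of GFAP was thus far under that of untransfected cells. SOX2 read 509 and 1050 (1.04), but 797 with ethanol. The glutamine synthetase gene GLUL (532 and 993, 0.90) and clusterin CLU (766 and 1452, 0.92) were also higher, GLUL with 531 and CLU with 1347 for ethanol.

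Of 31 interferon-stimulated genes IFITM1 alone passed 2-fold and the median was 0.17, with IFI6 at 106 and 210 (0.98). Of 46 ribosomal protein genes 23 were higher and 23 lower, with a median of 0.00, and none was 2-fold apart. The 28 genes of the integrated stress response were split 14 to 14, with a median of -0.01, and PPP1R15A, a phosphatase subunit that restores translation, was past 2-fold (146 and 72.8, -1.01). For that list the reference array mattered. At day 1 the ethanol array lay above the untreated one for 25 of the 28, against 2716 of 5637 genes over all. The median of that difference was 0.58 for the list, so that day 2 over ethanol had a median of -0.66. None of 25 immediate early genes and none of 25 sterol synthesis genes was 2-fold apart, with medians of 0.05 and 0.12.

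**Figure D5:**
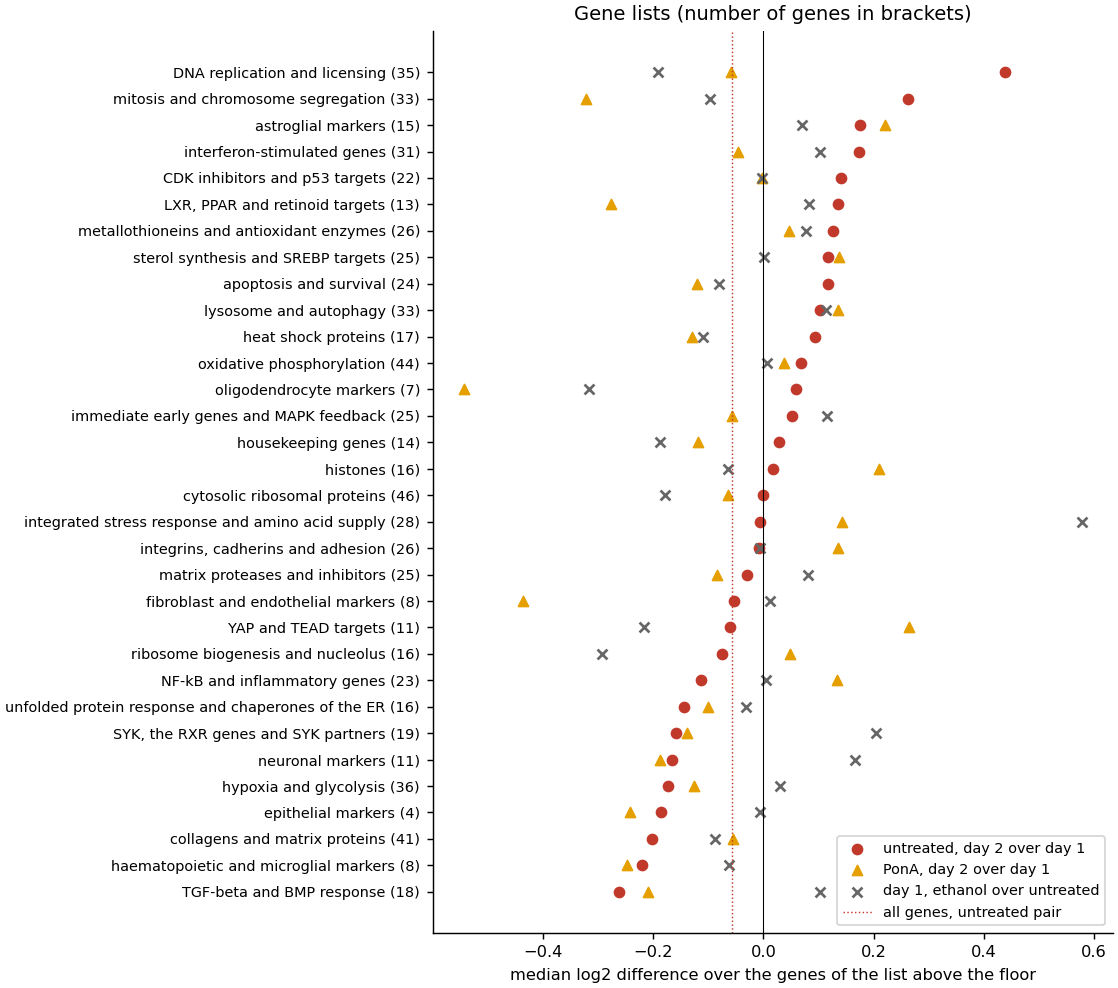
Median log2 difference (x axis) over the genes of each of 32 lists, with the number of genes above the floor in brackets, for untreated day 2 over day 1 (red), PonA day 2 over day 1 (orange) and ethanol over untreated at day 1 (grey crosses). DNA replication and mitosis are highest (0.44 and 0.26), histones stand at 0.018 and TGF-beta genes lowest (-0.26) in the untreated pair, and the dotted line is the median of all genes (-0.06).

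The transfected gene itself was dim on these arrays. SYK, a tyrosine kinase best known from blood cells, read 73.1 at day 1 and 22.0, under the floor, at day 2 by its brightest probe set. The ethanol array read 64.1, the PonA arrays 56.3 and 35.2 and untransfected cells 31.0, so the untreated day 2 signal of this probe set was the lowest of the 6. A second SYK probe set was under the floor on both untreated arrays (22.2 at day 1), with ethanol (14.4) and in untransfected cells (1.74), but read 39.1 and 72.5 with PonA. The third was under the floor on both untreated arrays. The first 2 probe sets thus differ in their order of the arrays, and whether these probes match the inserted sequence was not tested. RXRA, the partner of the ecdysone receptor in such systems, read 653 and 713 (0.13).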

How the data were processed

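Expression was measured on 6 arrays, 1 per group. Per the submitters' processing notes the authors used MAS5, and the deposited value table holds its signal, a linear intensity per probe set; the trimmed mean (2% off each end) of every array lies between 150.07 and 150.08, so the arrays had been scaled. The MAS5 version, detection calls and a genome build for the probes are not given in the sources used here. Of 12558 probe sets, 67 controls were set aside, and 10943 had 1 gene symbol, 545 several and 1070 none in the platform annotation; 10934 of the symbols matched RefSeq. No depth applies to arrays: their number limits the precision.

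Floors, log2 differences, gene choice and bounds were computed as given in the report. The day term was fitted with limma 3.58.1 in R 4.3.3 (lmFit and eBayes, with Benjamini-Hochberg adjustment over all 7934 probe sets that exceeded the floor in 2 or more of the 5 arrays), after a check on simulated data. P-values measure only the spread between these arrays. Named genes are the 15 highest and 15 lowest differences with both signals above the floor and 1 of at least 100, the 5 highest and lowest bounds, list members past 2-fold in lists with at least 3 such members, SYK, RXRA and control genes; other names were chosen after their values were seen. The members, the 32 gene lists and the motifs were chosen with earlier results of these data known. Alternatives were other floors, a pseudocount of 32, quantile normalization, centring, the ethanol day 1 array as reference, other probe set rules, other fits and leaving out each array; a mean day 1 reference, 1 common floor and a PonA-by-day term were added after seeing the data.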

Additional observations from a re-analysis of the deposited data

Results flagged for a closer look

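For 3 named genes the day went opposite ways in untreated and PonA-treated cells, by at least 2-fold in each pair. PSMA7 read 36.1 at day 1 and 109 at day 2 untreated but 163 and 24.6 with PonA, with 114 for ethanol at day 1. Its PonA-by-day term was -3.49. That term is the day difference with PonA minus the one without it, with the untreated and ethanol arrays averaged at day 1. Against the ethanol array alone, PSMA7 on the untreated day 2 array differed by -0.072. FGF4 read 51.5 and 117 untreated but 84.9 and 23.5 with PonA, with a term of -2.80. MEG3 read 130 and 42.1 untreated but 28.6 and 61.7 with PonA, with a term of 2.43. The lower PonA signal of each gene lay near the floor of its array (26.5 at day 1 and 22.7 at day 2). In limma's fit of that term, with 1 residual degree of freedom, the adjusted p was 0.917 for each of the 3, and 0 of 7934 probe sets passed (330 at an unadjusted p under 0.05, smallest adjusted p 0.413).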

How the results depend on the processing

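Counts of 2-fold probe sets moved with the treatment of dim signal. Against 83 higher and 172 lower, they were 234 and 513 with the floor at the 25th percentile, 42 and 72 at the 50th, 25 and 46 with a pseudocount, and 125 and 112 after quantile normalization. Requiring both signals above the floor left 109 lower, and the mean of the untreated and ethanol day 1 arrays as reference left 55 higher. The day term, with 0 calls either way, called 1 higher and 1 lower with the floor at the 50th percentile, 1 higher after centring, and 1 higher and 6 lower with treatment as 3 levels. Leaving out 1 array gave 0 to 2 higher and 0 to 14 lower: 1 and 2 without the untreated day 1 array, 2 and 14 without the ethanol array, and 0 without any other. With the ethanol day 1 array as reference PSMA7 (-0.072), APBA3 (-0.28) and HSPA1B (-0.19) reversed. Beside these, 21 others of the 43 named genes moved by more than the same-day spread (SD 0.39). The cause was not tested. After centring, quantile normalization or 1 common floor all 43 moved by less. Of 32 list medians 4 moved with the ethanol reference and 1 with the mean reference. No paired analysis was possible because each group has 1 array. Dim signal limits what can be told: under 100, 5.10% of probe sets were 2-fold apart between days and 3.81% within day 1.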

Other observations

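Of 13 LXR, PPAR and retinoid target genes 10 were higher at day 2 in untreated cells (76.9%, against 43.6% of all genes, median 0.14). With PonA 1 was (7.69%, against 46.1% of all genes, median -0.28). With the ethanol array as the day 1 reference the untreated median was -0.029, so its sign depends on the reference. Among them the crosslinking enzyme TGM2 read 178 and 298 untreated (0.74) and 142 and 112 with PonA (-0.35). The difference between the pairs was not tested for the list.

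TNFRSF21, a death receptor, read 68.7 at day 1 and 30.6 at day 2 untreated (log2 -1.17) and 821 and 524 with PonA (-0.65), with 101 for ethanol and 87.0 in untransfected cells. The amino acid transporter SLC7A5 read 1054 and 546 untreated (-0.95) and 1692 and 1193 with PonA (-0.50).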
